A study of Mus musculus with 6 samples.

Results

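Interleukin 1 beta (Il1b) and interleukin 1 alpha (Il1a) lie side by side on mouse chromosome 2, and CTBP2 signal was followed at the 24 binding sites around them, out of 62236 sites measured across the genome. The locus was chosen with earlier results of these data known. Its sites were then taken by position alone, as those on chromosome 2 whose centre lay between 129100 and 129300 kb. Positions were read as GRCm39. The data came from chromatin immunoprecipitation and sequencing (ChIP-seq) with an antibody to CTBP2 in bone marrow-derived macrophages, cells differentiated from marrow precursors in culture. Of the libraries, 3 came from cells given lipopolysaccharide (LPS), a component of the bacterial outer membrane, at 100 ng/ml for 3 h, and 3 came from cells given the vehicle PBS. Every library came from wild-type male C57BL6/N mice aged 6 to 12 weeks, with macrophages differentiated to day 6 in medium containing L929 supernatant. Replicates are numbered in the labels, which do not tell whether each was a separate animal or culture, so the spread behind the p-values is that between libraries and could be technical. ChIP-seq does not measure expression, so the labelled cell type was not checked against marker levels, and no input library was analysed here.

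CTBP2 is a co-repressor that does not read DNA itself. It is brought to chromatin by DNA-bound factors and carries with it histone-modifying enzymes such as deacetylases and the demethylase LSD1. Il1b encodes a secreted mediator of fever and inflammation that is made as an inactive precursor and cut by caspase-1, while the Il1a precursor is already active and acts as an alarm signal when cells are damaged. In macrophages both genes are silent or low at rest and are switched on within hours when LPS is sensed through Toll-like receptor 4 and NF-kB.

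Genes were placed among the sites through an offset measured in the table itself, because the gene annotation used here was GRCm38.p6. Of 90 gene starts within 2 Mb of Il1b, 44 had a site centre within 500 bp when moved by -158 kb. The best offset elsewhere gave 18, the median offset gave 6, and no offset gave 7. Distances to genes below rest on this offset, which was scanned in steps of 250 bp. The Il1a and Il1b starts are 61.2 kb apart and both genes are read in the same direction, so that the sequence upstream of Il1a leads towards the end of Il1b.

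No listed site centre lay within 8.24 kb of the Il1b start, and the nearest to the Il1a start was 3.79 kb away, inside the gene. The 250 bases before each gene start are shown because they are the control regions that these sites surround and because neither lies inside a listed site. They are RefSeq sequences of build GRCm38.p6, minus strand, at chr2:129371140-129371389 for Il1b and chr2:129309973-129310222 for Il1a, written 5′ to 3′, and the capitals mark letters that matched a searched motif.
Il1b: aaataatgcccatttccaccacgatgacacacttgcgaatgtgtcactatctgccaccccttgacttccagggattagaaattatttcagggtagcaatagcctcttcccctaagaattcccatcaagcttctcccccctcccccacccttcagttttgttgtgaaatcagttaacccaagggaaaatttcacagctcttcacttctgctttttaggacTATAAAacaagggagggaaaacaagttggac
Il1a: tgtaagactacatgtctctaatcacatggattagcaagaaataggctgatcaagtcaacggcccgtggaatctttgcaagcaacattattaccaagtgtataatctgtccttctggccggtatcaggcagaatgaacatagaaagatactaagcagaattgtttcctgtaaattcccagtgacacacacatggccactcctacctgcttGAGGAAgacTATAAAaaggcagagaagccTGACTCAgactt

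The searched letters, on both strands, were TATAAA for a TATA box, GGG, any 5 bases and CC for NF-kB, TGANTCA for AP-1, TTGCNNAA for C/EBP, GAGGAA for PU.1, GAAA, any 2 bases and GAAA for interferon-driven factors and CAGGTG for the E-box of ZEB proteins, which recruit CTBP. TATAAA was added after the sequences had been read. It begins 31 bases before the start in Il1b and 32 bases before it in Il1a, and 13% of 27025 RefSeq promoters of the same length hold it. The Il1a sequence also holds TGACTCA from base 12 and GAGGAA from base 41 before the start. The AP-1 letters occur in 6.87% of all promoters and the PU.1 letters in 23.1%. Neither sequence holds the letters searched for NF-kB, C/EBP, interferon-driven factors or the ZEB E-box, which occur in 45.4%, 9.55%, 3.04% and 17.1% of promoters. A match or its lack describes these letters in these windows only.

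CTBP2 signal was higher after LPS along most of the locus. Of the 24 sites, 19 passed as higher in LPS and 0 as lower, at an adjusted p under 0.05 in limma over all sites. Over all 62236 sites, 16.1% passed as higher and 13.5% as lower. Since the locus was chosen with earlier results known, it is not an unselected draw from these sites. The median log2 fold of LPS over vehicle was 0.92 at the 24 sites and -0.02 over all sites. At 20 of the 24, the 19 called sites among them, every LPS library lay above every vehicle library, which held at 21.6% of all sites. The values are the deposited signal scaled so that every library has the same median, and folds were taken after adding 1 to each value and taking log2, which makes changes at weak sites look smaller. On the deposited values without this scaling, 3 of the 19 calls remained, those 8.24 kb downstream of the Il1b start, 5.99 kb upstream of Il1a and 39.3 kb upstream of Il1b. The median log2 fold of the 24 sites was 0.98 there, against 0.92 with the scaling, and that of all sites was 0.04, against -0.02. Leaving out the scaling thus moved the median fold upward over all sites too. The 16 lost calls all had larger log2 folds than with the scaling, at 0.50 to 1.66. This goes with the shift over all sites and is not separate evidence for them. The median standard error of the 24 folds was 0.46 on the deposited values and 0.20 with the scaling. Over all sites that setting gave 1178 higher and 30 lower calls, 97.5% of them higher, against 10034 and 8409, 54.4% of them higher, with the scaling.

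Read numbers are an estimate, taken by reading the common step of each deposited column as 1 read. In 5 of the 6 columns the lowest value was more than 1 step, so these read numbers stay uncertain and no count test was run on them. On this reading the libraries held 3243258 to 4553179 reads in sites, and the 24 sites 10 to 251 reads in a library, with a median of 49.5. Each site was 1001 bp wide, from chromatin sheared to fragments of 500 to 1000 bp, and neighbouring centres were 1.97 to 42.8 kb apart, with a median of 4.63 kb. Listed sites were dense at the locus. The 24 sites in 200 kb exceeded the number in 95.5% of the 7103 bins of 200 kb that held a site, where the median was 7. The list is one for both groups, and several of these sites were weak in vehicle. The number therefore does not describe vehicle cells, and it may not be separate from the gain in LPS.

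**Figure D1:**
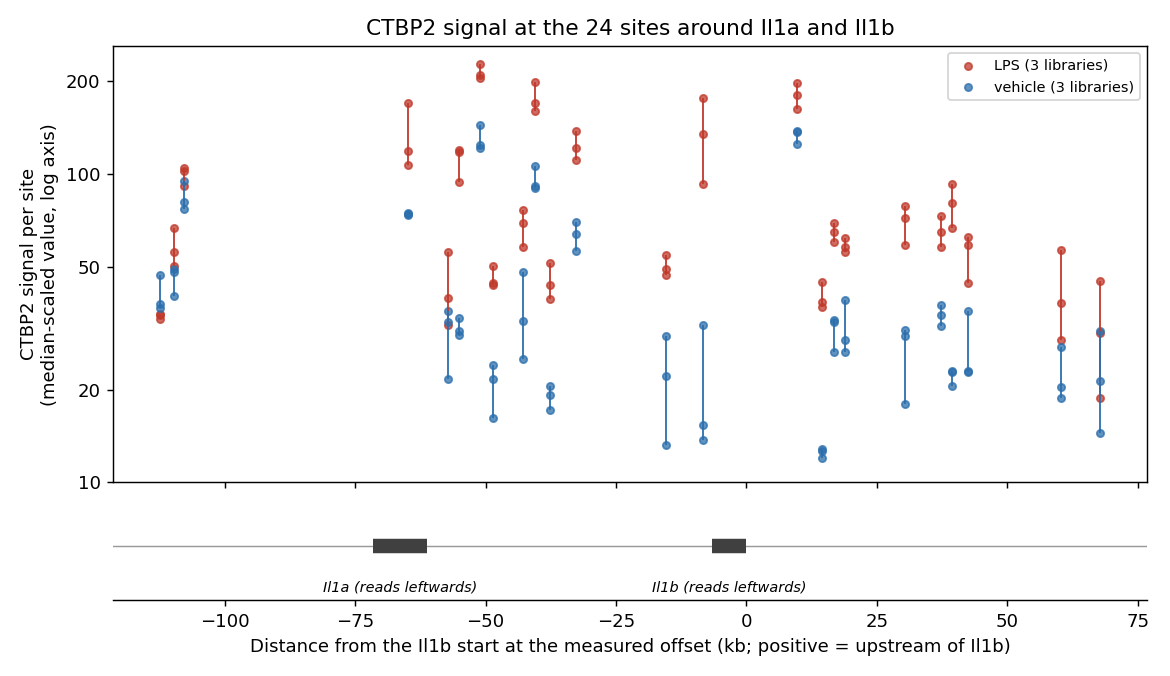
CTBP2 signal (median-scaled value, log axis) at the 24 sites against distance from the Il1b start at the measured offset in kb. Points are the 3 LPS and 3 vehicle libraries, lines join the lowest and highest library of a group, and grey blocks are Il1a and Il1b. At the 3 sites left of Il1a the groups lie close together, while at 19 sites from inside Il1a to 60.3 kb upstream of Il1b all LPS points lie above all vehicle points.

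Summed over the 24 sites, the scaled signal was 1900, 1995 and 2167 in the LPS libraries and 1082, 1055 and 1091 in the vehicle libraries. The LPS libraries averaged 2021 ± 135 and the vehicle libraries 1076 ± 18.6 (SD, n = 3 each), a ratio of 1.88. The lowest LPS sum was above the highest vehicle sum. Vehicle libraries differed little from each other, and leaving out any single library kept the log2 ratio between 0.86 and 0.95. This sum is a description and was not tested, since the locus was chosen with earlier results of these data known.

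The site nearest to the Il1b start had the largest limma log2 fold of the locus, though not the largest fold in the authors' deposited table. It lies at chr2:129204397-129205397, 8.24 kb downstream of the start and 1.67 kb beyond the end of Il1b. Its values were 92.8, 134.8 and 176.9 in LPS replicates 1, 2 and 3, against 13.7, 15.4 and 32.5 in vehicle replicates 1, 2 and 3. The groups did not overlap, and the highest vehicle value came from replicate 3. Its log2 fold reached 2.71 (SE 0.31, limma adjusted p = 5.36e-05), higher than at 99.9% of all sites. In steps read as reads, the LPS libraries held 85, 158 and 196 and the vehicle libraries 12, 18 and 27. In vehicle the site was among the weakly bound ones, above only 5.83% of all sites, and in LPS it was above 93.6%. The log2 fold ranged from 2.49 to 3.08 when single libraries were left out, and the call remained each time.

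A second strong gain lay before Il1a. The site at chr2:129157464-129158464, 5.99 kb upstream of the Il1a start, had 93.9, 119.5 and 118.2 in LPS and 30.9, 34.1 and 30.1 in vehicle. Its vehicle libraries were nearly level and lay well below the lowest LPS library. The log2 fold was 1.76 (SE 0.17), with the smallest limma adjusted p of the locus at 1.12e-09. The closer neighbour, 3.99 kb upstream of Il1a, had 42.6 ± 11.9 in LPS and 30.2 ± 7.54 in vehicle (SD, n = 3 each) and did not pass (log2 fold 0.48, limma adjusted p = 0.118). The site inside Il1a at chr2:129147682-129148682 had 107.0, 118.6 and 169.7 in LPS and 74.4, 73.4 and 74.6 in vehicle. This site was already well bound before LPS, above 73.5% of all sites, and its change was smaller (log2 fold 0.79, SE 0.16, limma adjusted p = 0.000281).

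**Figure D2:**
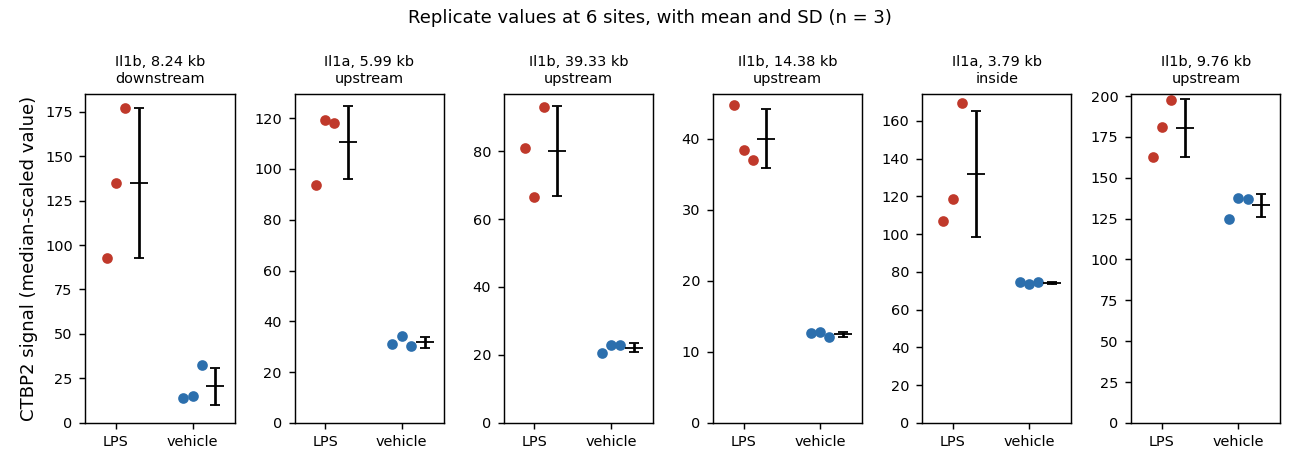
CTBP2 signal (median-scaled value) in each LPS and vehicle library at 6 sites, named by gene and by distance from its start, with the mean and SD of each group (n = 3). The 6 sites were picked from the 19 called ones, at each of which every LPS library lay above every vehicle library. The separation in all 6 panels therefore came with the choice. The ratio of the group means is largest 8.24 kb downstream of the Il1b start and smallest 9.76 kb upstream of it.

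Between the Il1a and Il1b genes, 9 of 10 sites were higher in LPS, with a median log2 fold of 1.04 over the 10. Summed over these 10 sites, the signal was 1010 ± 59.4 in LPS and 468 ± 2.30 in vehicle (SD, n = 3 each), a ratio of 2.16. The strongest LPS signal of the locus was 10.2 kb upstream of Il1a, at chr2:129161636-129162636, with 205.2, 209.9 and 226.5 in LPS and 144.2, 121.2 and 123.9 in vehicle. It was higher than 98.9% of all sites in LPS and than 93.4% in vehicle, so it was a strong site in both groups, and it gained 0.72 on the log2 scale (SE 0.13, limma adjusted p = 8.27e-05). The sites 20.7 and 28.5 kb upstream of Il1a were also well bound in vehicle. The first, at chr2:129172177-129173177, had 176 ± 19.7 in LPS and 95.9 ± 8.62 in vehicle (log2 fold 0.87, SE 0.14). The second, at chr2:129179988-129180988, had 124 ± 13.5 in LPS and 63.3 ± 6.88 in vehicle (log2 fold 0.95, SE 0.16, SD and n = 3 as above). Their limma adjusted p-values were 1.49e-05 and 1.53e-05.

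Other sites of the intergenic stretch were weak in vehicle. The site 12.6 kb upstream of Il1a had 46.0 ± 3.68 in LPS and 20.6 ± 4.01 in vehicle, and the one 23.6 kb upstream had 44.8 ± 6.16 in LPS and 19.0 ± 1.67 in vehicle (SD, n = 3 each). Their log2 folds were 1.13 and 1.19 (limma adjusted p = 0.000275 and 0.000203). These sites reached only the middle of the range in LPS, above 49.5% and 47.7% of all sites. On the Il1b side, the site 15.5 kb downstream of the Il1b start, 8.90 kb beyond the end of the gene, had 49.1, 54.6 and 46.9 in LPS and 29.8, 22.2 and 13.2 in vehicle. Its vehicle libraries were spread more than its LPS libraries, and its log2 fold of 1.24 (SE 0.24) passed in limma (adjusted p = 0.000191).

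Upstream of Il1b, 9 of 10 sites were higher in LPS, with a median log2 fold of 0.95 over the 10. The summed signal of the 10 was 687 ± 38.2 in LPS and 363 ± 8.92 in vehicle (SD, n = 3 each), a ratio of 1.89. The first upstream site, 9.76 kb before the start at chr2:129222397-129223397, was the strongest of the locus in vehicle. It had 162.6, 180.9 and 197.6 in LPS and 124.8, 137.4 and 137.2 in vehicle, with no overlap. Its log2 fold of 0.43 (SE 0.13, limma adjusted p = 0.0141) was the smallest among the called sites. The call ended without LPS replicate 2, LPS replicate 3 or vehicle replicate 1, with log2 folds of 0.43, 0.36 and 0.39 and limma adjusted p of 0.0623, 0.0654 and 0.0741.

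Further out, the gains were larger again. The site 14.4 kb upstream of Il1b at chr2:129227023-129228023 was the weakest of the locus in vehicle, above only 0.315% of all sites. It had 44.8, 38.4 and 37.0 in LPS and 12.6, 12.8 and 12.0 in vehicle, from an estimated 41, 45 and 41 reads in LPS and 11, 15 and 10 reads in vehicle. This gave a log2 fold of 1.60 (SE 0.29) with a limma adjusted p of 7.63e-05. The site 39.3 kb upstream, at chr2:129251964-129252964, had 80.8, 66.6 and 93.0 in LPS and 20.6, 23.0 and 22.9 in vehicle. All of its LPS libraries lay far above the vehicle libraries, with a log2 fold of 1.80 (SE 0.19) and a limma adjusted p of 8.58e-09. At 30.4 kb upstream the signal was 69.7 ± 10.1 in LPS and 26.3 ± 7.32 in vehicle, and at 16.7 kb upstream it was 64.8 ± 4.73 in LPS and 31.1 ± 4.04 in vehicle (SD, n = 3 each). Their log2 folds were 1.40 and 1.04 (limma adjusted p = 3.67e-06 and 5.64e-05).

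**Figure D3:**
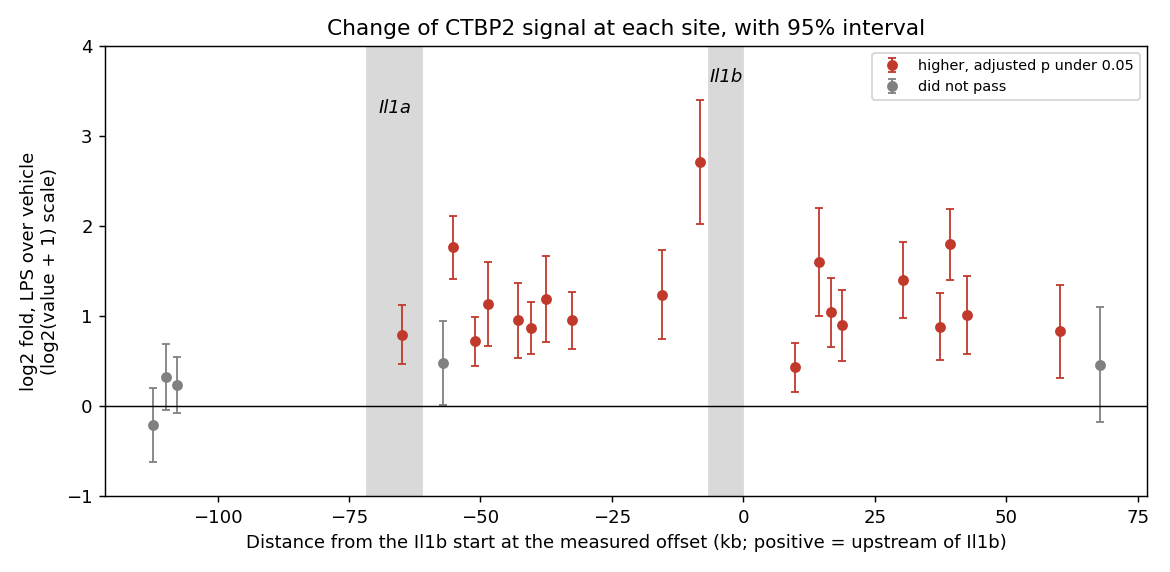
log2 fold of LPS over vehicle, on the log2(value + 1) scale, with its 95% interval, at each of the 24 sites against distance from the Il1b start in kb. Red points passed as higher and grey points did not pass, with Il1a and Il1b shaded. The highest point, at 2.71, lies just beyond the end of Il1b, and the 3 leftmost points lie near 0.

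The other 10 sites split evenly. Of these, 5 were higher, with log2 folds of 0.83 to 1.01, means of 41.4 to 67.8 in LPS and 22.2 to 35.5 in vehicle, and limma adjusted p of 0.000326 to 0.0119. The called site farthest from Il1b, 60.3 kb upstream, had 38.2, 29.0 and 56.9 in LPS and 27.5, 18.8 and 20.5 in vehicle, and its call ended without LPS replicate 3 (log2 fold 0.58, limma adjusted p = 0.153). The 5 that did not pass had log2 folds of -0.21 to 0.48. They were the site 3.99 kb upstream of Il1a, the outermost site 67.8 kb upstream of Il1b, and the 3 sites 4.83 to 9.43 kb beyond the end of Ckap2l, a gene for a protein of the mitotic spindle that lies on the far side of Il1a.

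The 3 sites beyond Ckap2l stand apart, 42.8 kb from the site inside Il1a. Their sum was 192 ± 13.2 in LPS and 171 ± 18.4 in vehicle (SD, n = 3 each), a ratio of 1.12. At the outermost of them the LPS libraries, at 33.8, 35.0 and 35.2, lay below the vehicle libraries, at 37.8, 36.7 and 46.9. In genome order they had log2 folds of -0.21, 0.32 and 0.24, with 95% intervals of -0.62 to 0.20, -0.05 to 0.69 and -0.07 to 0.55. The intervals leave room for a change of up to 0.69 on the log2 scale, and whether these 3 sites differ from the rest of the locus was not tested. Just inside the low edge of the window the first site had 34.7 ± 0.73 in LPS and 40.5 ± 5.63 in vehicle, and just outside it the next had 43.0 ± 10.0 in LPS and 40.2 ± 7.51 in vehicle (SD, n = 3 each). At the high edge the last site inside had 31.5 ± 13.2 in LPS and 22.2 ± 8.27 in vehicle, and the next outside had 46.0 ± 5.15 in LPS and 33.7 ± 5.59 in vehicle (SD, n = 3 each).

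In vehicle the median site of the locus was weaker than that of the genome, and in LPS it was stronger. The median over the 24 sites of the group mean was 65.0 in LPS and 31.3 in vehicle, while over all sites it was 46.4 in LPS and 46.5 in vehicle. Among the 19 called sites the LPS means ran from 40.1 to 213.9 and the vehicle means from 12.5 to 133.1. The gain exceeded 3-fold at 4 sites, those 8.24 kb downstream of the Il1b start, 5.99 kb upstream of Il1a, and 14.4 and 39.3 kb upstream of Il1b, all of which had vehicle means of at most 31.7. Calls and levels come from the same values, which builds part of this order in.

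In the authors' deposited table, 6 of the 24 sites had a higher signal at an FDR under 0.05 and 0 a lower one, against 4.01% and 0.37% of all sites. All 6 were among the 19 called here. The log2 fold in the authors' deposited table is a separate estimate, whose model the sources used here do not name, and it was nearer to 0 than the limma fold at all 24 sites. In the authors' deposited table it was 1.49 at 39.3 kb upstream of Il1b (FDR 0.000658), against 1.80 in limma. At 5.99 kb upstream of Il1a the authors' deposited table gives 1.46 (FDR 0.000749), against 1.76 in limma, and at 14.4 kb upstream of Il1b it gives 1.29 (FDR 0.0055), against 1.60. At the site 8.24 kb downstream of the Il1b start the authors' deposited table gives 0.99 (FDR 0.0351), against 2.71 in limma. It was thus not the largest fold there. The sites just named had larger ones, as did the site 15.5 kb downstream of the Il1b start, at 1.03 (FDR 0.0187). The authors' deposited table names Slc20a1, Chchd5, Ckap2l or Polr1b for these sites and never Il1a or Il1b. Gene positions and site positions in that table differ by the offset given above.

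The sites most like the one 5.99 kb upstream of Il1a, by Euclidean distance of log2(value + 1) over the 6 libraries, were sought among all sites outside the locus. The closest lay at chr12:104180204-104181204, 0.16 kb from the start of Serpina3f, a serine protease inhibitor gene, at a distance of 0.23. It had 97.2, 117.8 and 104.7 in LPS and 32.0, 32.4 and 27.7 in vehicle, which is nearly the same profile. Next were sites at Rnf213, which encodes a large ubiquitin ligase, at a distance of 0.30, one on chromosome 1 with no gene placed at 0.31, one near Gm32714 at 0.37, and one at Pik3cg, which encodes the gamma catalytic subunit of phosphoinositide 3-kinase, at 0.37. Their log2 folds were 1.52 to 1.93. The likeness is a description of 6 values and was not tested.

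Other genes of the interleukin 1 (IL-1) family and its signalling were read from a list of 40 genes, of which 29 could be placed by an offset measured around each, a step added after the data were seen. A site was counted for a gene if its centre lay in the gene or within 20 kb of it, so a counted site can lie far from the gene start. Leaving aside Il1a and Il1b, 27 genes held 200 sites, of which 65 (32.5%) were higher in LPS and 23 (11.5%) lower. The background over all sites was 16.1% higher and 13.5% lower, and no set test was made. At least 1 higher site was found at 19 of the 27 genes, at least 1 lower site at 13, and neither at 3. These gene counts depend on how many sites a gene holds, and a site shared by neighbouring genes counts for each of them. No background was made for them, nor for the counts at single genes below.

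Among the 6 ligand genes placed, each had a higher site and none a lower one. Of their 38 sites, 24 (63.2%) were higher, against 16.1% of all sites. This count includes the locus itself, with 5 of 6 sites higher at Il1a and 6 of 6 at Il1b, which was chosen with earlier results known. Il1rn encodes the natural antagonist that occupies the IL-1 receptor without signalling, and 5 of its 9 sites were higher. Its site with the smallest adjusted p, at chr2:24222743-24223743, had 70.9, 71.7 and 64.1 in LPS and 19.5, 17.1 and 19.3 in vehicle, and rose by 1.84 on the log2 scale (SE 0.20, limma adjusted p = 1.44e-08). At Il18, which encodes a related cytokine also cut by caspase-1, 4 of 10 sites were higher. The one with the smallest adjusted p, at chr9:50471459-50472459, had 99.3 ± 9.78 in LPS and 36.1 ± 5.89 in vehicle (SD, n = 3 each), a log2 fold of 1.44. Its limma adjusted p was 8.76e-08, while on the deposited values the log2 fold was 1.50 with an adjusted p of 0.0567.

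The receptor genes, which share a cluster on chromosome 1, ran the other way in part. Of 34 sites at 6 receptor genes, 4 (11.8%) were higher and 9 (26.5%) lower, against 16.1% and 13.5% of all sites. Il1rl1 held 5 of the lower sites, and the 2 lower sites of Il18r1 were among these 5. Their offset was less sharply set than that of Il1b, with 11 or 12 gene starts matched against 7 elsewhere. A site shared by Il1rl1, which encodes the IL-33 receptor, and Il18r1, which encodes a chain of the IL-18 receptor, lies at chr1:40518296-40519296. It had 22.9, 30.7 and 23.5 in LPS and 63.0, 52.1 and 60.2 in vehicle, with no overlap, and fell by 1.16 on the log2 scale (SE 0.20, limma adjusted p = 3.37e-05). On the deposited values its log2 fold was -1.10 (limma adjusted p = 0.279). At Il1r1, which encodes the receptor that carries the IL-1 signal, 3 of 10 sites were higher and 1 was lower.

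**Figure D4:**
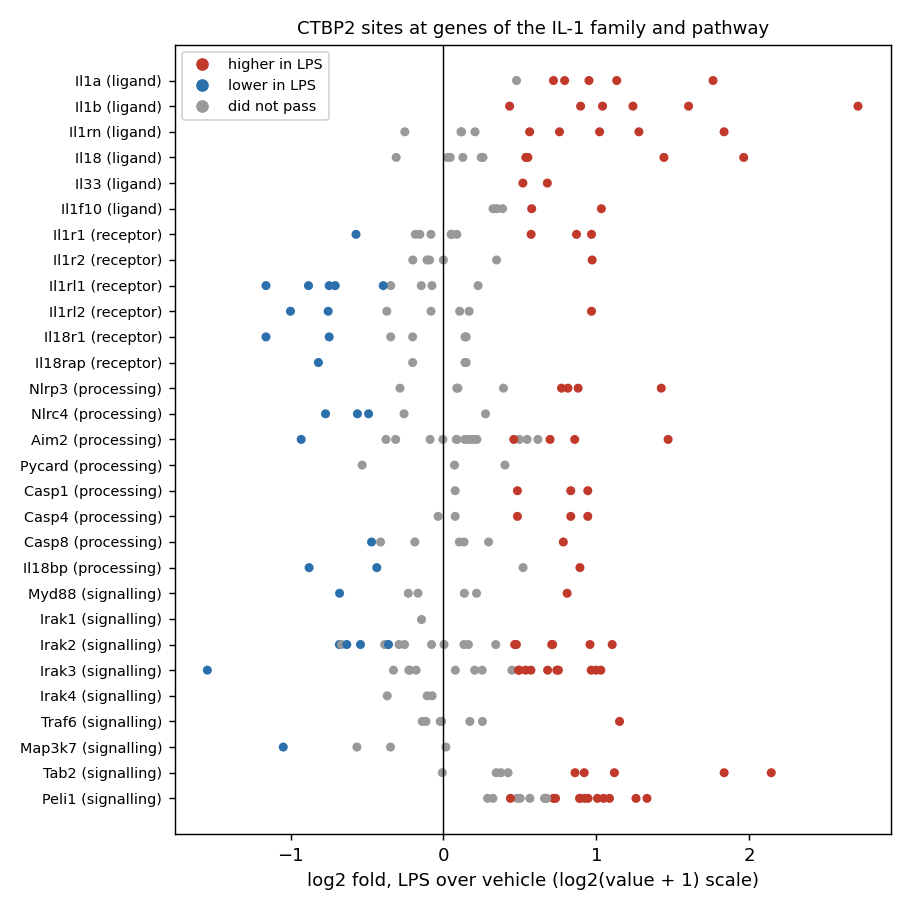
log2 fold of LPS over vehicle, on the log2(value + 1) scale, at every site in or within 20 kb of the 29 placed genes of the IL-1 family and pathway, with the role under which each gene was listed. Red points passed as higher, blue as lower and grey did not pass. Il1a and Il1b have no point below 0, while Il1rl1, Il18r1 and Nlrc4 are among the genes with lower sites and no higher ones. The lower sites of Il18r1 are also shown at Il1rl1.

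Of 51 sites at 8 genes listed under the processing of IL-1 cytokines, 13 (25.5%) were higher and 7 (13.7%) lower. The 8 include Il18bp, the gene of the IL-18 binding protein, which does not process cytokines. Of its 4 sites, 1 was higher and 2 were lower. Over all sites the shares were 16.1% and 13.5%, so the lower share was near that of all sites. Nlrp3 encodes the sensor of the inflammasome that activates caspase-1, and 4 of its 8 sites were higher and 0 lower. Its site with the smallest adjusted p, at chr11:59461135-59462135, had 39.3, 45.2 and 61.4 in LPS and 16.0, 18.8 and 16.8 in vehicle. It rose by 1.42 on the log2 scale (SE 0.24). Its limma adjusted p was 2.83e-05, while on the deposited values the log2 fold was 1.48 with an adjusted p of 0.0882. At Aim2, a sensor of cytosolic DNA, 4 of 19 sites were higher and 1 lower. The one with the smallest adjusted p, at chr1:173193193-173194193, lay 54.7 kb upstream of the gene start used here. It had 89.0 ± 23.2 in LPS and 31.2 ± 6.24 in vehicle (SD, n = 3 each, limma adjusted p = 5.18e-07). The offset at Aim2 matched 27 gene starts against 17 elsewhere. At Nlrc4, another inflammasome sensor, 3 of 5 sites were lower and 0 higher.

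Of 89 sites at 9 signalling genes, 35 (39.3%) were higher and 7 (7.87%) lower, against 16.1% and 13.5% of all sites. Tab2 encodes an adaptor of the kinase TAK1. Its site with the smallest adjusted p, at chr10:7823007-7824007, had 74.2, 82.8 and 79.4 in LPS and 20.6, 23.0 and 20.5 in vehicle. It rose by 1.84 on the log2 scale (SE 0.19, limma adjusted p = 3.76e-09). The Tab2 site at chr10:7818391-7819391 rose more, by 2.14 (SE 0.25, limma adjusted p = 5.72e-08). Irak3 encodes a kinase-like inhibitor of the pathway and had changes both ways, with 10 of 19 sites higher and 1 lower. The lower one, at chr10:119960862-119961862, 76.2 kb downstream of the start, had the smallest adjusted p (limma, 3.65e-07). It had 20.7, 25.6 and 26.2 in LPS and 58.4, 69.1 and 92.7 in vehicle, and fell by 1.54 on the log2 scale. On the deposited values its log2 fold was -1.48 (limma adjusted p = 0.0529). At Irak2, a kinase-like adaptor that sustains the signal, 6 of 20 sites were higher and 4 lower. The one with the smallest adjusted p, at chr6:113645293-113646293, had 247 ± 6.69 in LPS and 128 ± 20.5 in vehicle (SD, n = 3 each). It rose by 0.96 on the log2 scale (limma adjusted p = 1.67e-06). On the deposited values its log2 fold was 1.02 (limma adjusted p = 0.313). At Peli1, which encodes a ubiquitin ligase of the pathway, 12 of 20 sites were higher and 0 lower. The offset matched 10 gene starts against 6 elsewhere at Tab2, and 20 against 13 at Irak3, so these placements are less sharply set.

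**Figure D5:**
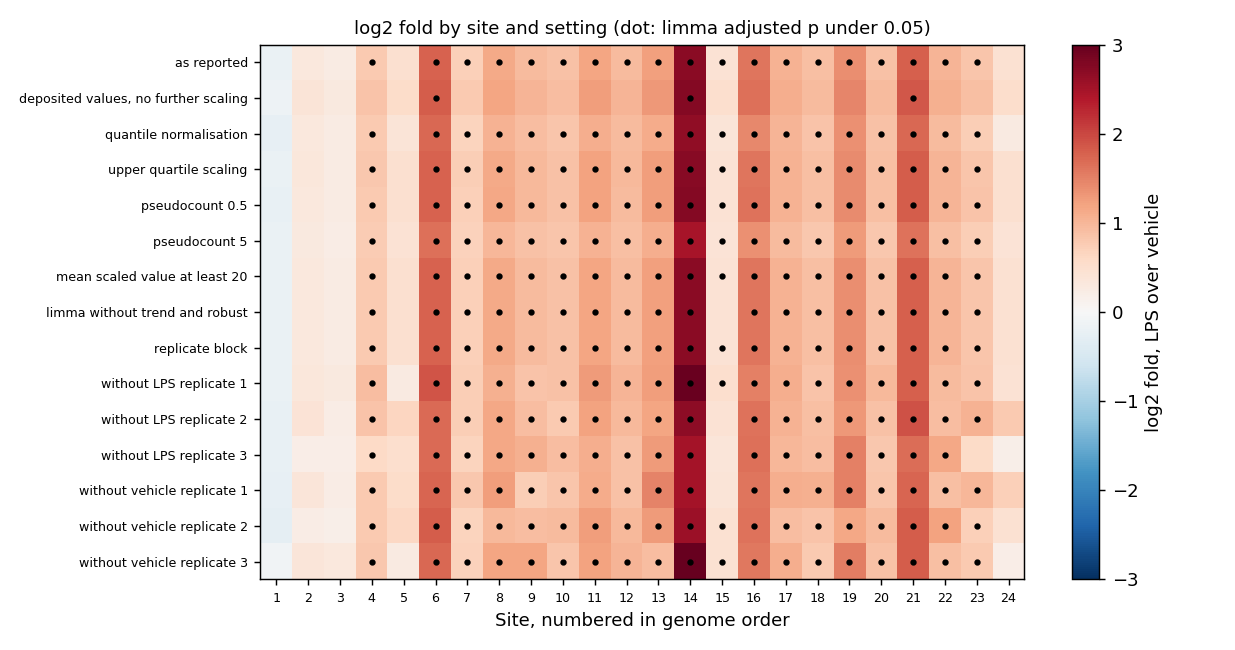
log2 fold of LPS over vehicle (colour) at the 24 sites, numbered in genome order, under each setting (rows), with a dot where limma adjusted p was under 0.05. Sites 14, 6 and 21, which lie 8.24 kb downstream of the Il1b start, 5.99 kb upstream of Il1a and 39.3 kb upstream of Il1b, carry a dot in every row.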

How the data were processed

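CTBP2 ChIP-seq was read from 1 deposited table with 6 library columns. Per the submitters' processing notes the tools included BWA 0.7.17, Picard 3.2.0, SAMtools 1.9, deepTools 3.5.1, MACS3 3.0.0a5, R 4.4.1 and DiffBind 3.16, and mm39, GRCm39 and mm10 are listed as builds. Whether libraries were pooled for peak calling was not given in these sources. The authors' deposited signal columns hold whole multiples of 1 step per library (within 0.1 step for values up to 300 steps), and reads were estimated from these steps. The authors' deposited log2 concentrations and log2 fold, and the deposited p-values and FDR, are used only where named. Each column was divided by its median and multiplied by the geometric mean of the 6 medians, 46.9, since the deposited medians ran from 35.5 to 73.0. Sites were tested with limma 3.58.1 under R 4.3.3 (trend, robust, two-sided) on log2(value + 1), with 3 libraries per group, no covariate, no filter and Benjamini-Hochberg adjustment over all sites, checked on simulated data. No count model was used. Figures and other values were made in Python 3.11.15.

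Sites given in full were up to 12 called ones by adjusted p, those nearest to each gene start and the strongest of each group. Pathway genes were the 10 with the smallest adjusted p, plus Il1r1, Nlrc4 and Peli1, chosen after their values were seen. The members and lists were chosen with earlier results of these data known. An offset needed 1.5 times the hits of any other. Of the 40 listed genes, 7 were not matched in the tables used and 4 had no clear offset. Alternatives were other scalings, pseudocounts of 0.5 and 5, a minimum mean of 20, limma without trend and robust, the replicate block, a threshold of 0.01, and leaving out each library.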

Additional observations from a re-analysis of the deposited data

How the results depend on the processing

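The direction of LPS over vehicle stayed the same at all 24 sites under the 15 alternatives run, and 337 of 360 calls stayed on the same side of the threshold. The exceptions came mostly from the deposited values without further scaling, where 3 of 19 sites passed as higher in the locus, and 1178 higher and 30 lower over all sites. All 16 calls lost there had larger log2 folds than with the scaling, but the median log2 fold of all sites also rose, from -0.02 to 0.04. The median standard error at the 24 sites was 0.46 on the deposited values, against 0.20 with the scaling. All 19 calls were kept with quantile normalisation, upper quartile scaling, either pseudocount and the filter, and 18 without trend and robust. Without single libraries the locus had 17 to 19 higher sites, and all sites 7691 to 10081 higher and 6032 to 7913 lower. At an adjusted p under 0.01, 17 sites of the locus were higher, and of all sites 6924 were higher and 4699 lower. Counting only the 7 sites within 10 kb of either gene, an alternative added after the data were seen, left 6 higher, since fewer sites were counted. That membership could not be tried with annotation of the sites' own build. With the replicate block 19 sites were higher. The block pairs libraries by replicate number, and the labels do not tell whether they were paired. Deviations of same-numbered libraries correlated at 0.111, 0.0385 and 0.214, and those of differently numbered ones at -0.205 to 0.148. LPS replicates 2 and 3 correlated best with the vehicle library of their own number, and LPS replicate 1 with vehicle replicate 2. Whether the replicates were paired was not tested. The block gave 11692 higher and 10398 lower sites among all sites. Of 112 values at the 8 named pathway sites 5 lost their call, each on the deposited values, and none of the 70 at the like sites did. The weakest sites held an estimated 10 reads in a library, and how far depth sets the error was not tested.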
